A study of Mus musculus with 20 samples.

Results

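The genes described here are those of cholesterol synthesis, of its control by SREBP2, and of cholesterol uptake, transport and export, in mouse liver. They were taken by name: a probe set belongs to them when its only gene symbol in the platform annotation is 1 of 32 listed genes. Of the 32 genes, 30 had such a probe set, and these genes held 65 of the 45037 probe sets of the table. Acat2 and Soat2 were not analysed here because no probe set carried those symbols. Each gene was measured by 1 probe set, and the other probe sets of the same gene are given further on. The 30 genes are set among 18193 genes that were measured in the same way. By role, 6 genes act in the early steps of synthesis, 11 in the late steps, 4 in SREBP2 control, 4 in uptake and intracellular transport, and 5 in export and esterification.

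The livers came from male mice of 9 weeks that received CMP013, an inhibitor of the protease BACE1, or its vehicle by oral gavage. There were 4 groups of 5 mice: WT vehicle and WT CMP013 (C57Bl/6, PXR+/+), and PXR-KO vehicle and PXR-KO CMP013 (PXR-/-, lacking the nuclear receptor PXR, which senses foreign compounds and is encoded by Nr1i2). The dose was 150 mg/kg/day, given every 24 h, and all mice were sampled at 96 h after a short fast. RNA from each mouse was hybridized to 1 Affymetrix mouse genome array, so the 20 arrays are 20 animals. The PXR-KO mice are on the C57Bl/6NTac background in the methods of the study and the WT mice on C57Bl/6, so genotype and background cannot be told apart. Per the labels, RNA integrity numbers ran from 9.3 to 10 in WT and from 8.7 to 9.6 in PXR-KO livers.

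Cholesterol is built from acetyl-CoA. The early enzymes make mevalonate and then the isoprenoid farnesyl diphosphate, which also feeds other products, and the late enzymes join farnesyl units into squalene, close the ring to lanosterol and trim it to cholesterol. When sterols in the endoplasmic reticulum are low, Scap carries the membrane-bound precursor of SREBP2 (encoded by Srebf2) to the Golgi, where it is cut and released to switch on nearly the whole pathway, and when sterols are high the Insig proteins hold Scap back. The liver takes up lipoprotein cholesterol through receptors such as Scarb1, moves it inside the cell with carriers such as the Npc proteins and Stard4, and disposes of it through the ABC transporters and as bile acids.

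The promoters of the synthesis genes are the meeting place of SREBP2 with the factors NF-Y and Sp1, so the windows of 4 genes whose responses are described below are printed first. The sequences are from RefSeq (GRCm38.p6), each covering 250 bases before and 50 bases after the annotated start, 5′ to 3′ on the strand of the gene. Capitals mark the motif CCAAT of NF-Y on either strand and, in Hmgcs1 alone, the sterol element TCACNCCAC. The Hmgcs1 window is chr13:119690101-119690400 (plus strand), Mvd is chr8:122443373-122443672 (minus strand), Idi1 is chr13:8885356-8885655 (plus strand) and Cyp51 is chr5:4104648-4104947 (minus strand).
Hmgcs1: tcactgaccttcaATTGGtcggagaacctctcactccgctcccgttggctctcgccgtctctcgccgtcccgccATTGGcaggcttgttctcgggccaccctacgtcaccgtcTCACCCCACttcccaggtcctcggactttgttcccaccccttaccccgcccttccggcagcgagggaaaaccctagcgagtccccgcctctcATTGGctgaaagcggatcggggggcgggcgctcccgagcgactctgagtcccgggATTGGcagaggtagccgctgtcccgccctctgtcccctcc
Mvd: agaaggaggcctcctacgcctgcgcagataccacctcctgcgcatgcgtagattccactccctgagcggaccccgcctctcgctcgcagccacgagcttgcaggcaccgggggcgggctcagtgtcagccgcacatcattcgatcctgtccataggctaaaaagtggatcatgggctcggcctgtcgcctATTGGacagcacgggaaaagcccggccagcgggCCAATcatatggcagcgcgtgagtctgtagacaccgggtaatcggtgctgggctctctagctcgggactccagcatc
Idi1: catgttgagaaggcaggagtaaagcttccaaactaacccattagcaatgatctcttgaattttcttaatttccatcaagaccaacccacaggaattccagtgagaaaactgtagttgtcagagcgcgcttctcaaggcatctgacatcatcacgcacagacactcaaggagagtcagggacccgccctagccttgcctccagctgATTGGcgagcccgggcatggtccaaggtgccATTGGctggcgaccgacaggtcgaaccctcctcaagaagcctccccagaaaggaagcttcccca
Cyp51: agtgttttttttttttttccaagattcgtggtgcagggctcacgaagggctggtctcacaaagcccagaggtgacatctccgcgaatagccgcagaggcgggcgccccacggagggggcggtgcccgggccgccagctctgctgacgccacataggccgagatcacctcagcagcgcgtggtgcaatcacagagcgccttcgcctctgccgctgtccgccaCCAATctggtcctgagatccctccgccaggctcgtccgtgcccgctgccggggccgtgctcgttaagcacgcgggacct

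In the Hmgcs1 window the sterol element begins at position -137 from the start, on the plus strand. Windows of 24 of the 32 genes were searched, 31 windows in all. TCACNCCAC, searched on both strands, was found in 1 of these 31 windows (Hmgcs1, 3.23%), against 1.24% of all 32851 windows of the same length. CCAAT was found in 14 of the 15 synthesis genes with a window (14 of their 18 windows, 77.8%), against 37.4% of all windows. GGGCGG, the core of the Sp1 site, was in 15 of those 18 windows (83.3%), against 35.7% of all. No match of 1 motif overlapped a match of another in these windows, and the 15 synthesis genes include Acat2, which has no expression value here. A match of letters is a description and does not show that a factor binds, and a window without TCACNCCAC only lacks these letters.

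Each value in the table is a ratio: the signal of an animal over the mean of the 5 vehicle animals of its own genotype. A ratio of 1 therefore means the vehicle level of that genotype, and neither the effect of the knockout itself, nor the level of a gene, nor a check of the labels by the loss of Nr1i2 can be read from these values. The Nr1i2 probe set had ratios of 0.863 to 1.19 in WT CMP013 livers and of up to 1.58 in PXR-KO CMP013 livers, where it rose relative to their own vehicle animals (log2 fold change 0.46, standard error 0.09, limma adjusted p = 0.0250). The array medians lay between -0.03 and 0.01 on the log2 scale. On the whole arrays, 4 vehicle animals stood apart from the rest on the second principal component of all probe sets: replicates 3 and 4 of the WT vehicle group (scores 49.2 and 52.0) and replicates 2 and 4 of the PXR-KO vehicle group (73.3 and 55.3), and counts without them are given where they differ. Tests are limma on log2 ratios with Benjamini-Hochberg adjustment over all 45037 probe sets, and a gene is said to rise or fall, or to be called, where its adjusted p is under 0.05. The log2 fold change is CMP013 minus vehicle, given with its standard error (SE) from limma.

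In WT livers CMP013 raised most of the cholesterol synthesis pathway, and in PXR-KO livers 2 of its enzymes were called higher by the probe set used. Another probe set each of Mvk (1.43, adjusted p = 0.0165) and Hmgcs1 (1.45, adjusted p = 0.0417) was called higher in PXR-KO livers too. Of the 30 genes, 16 were called in WT mice, 12 higher and 4 lower, where 17.7% of all genes were called (9.72% higher and 7.98% lower). In PXR-KO mice 4 were called, 2 higher (Idi1 and Cyp51) and 2 lower (Scap and Insig2), where 4.64% of all genes were called (2.5% higher and 2.14% lower). In whole liver, fewer cells of a type and less RNA per cell cannot be told apart, and markers of other cells are given at the end. The 30 genes had a median log2 fold change of 0.34 in WT livers and of -0.01 in PXR-KO livers, beside -0.0011 and -0.02 over all genes. The 12 that rose in WT mice are all enzymes of synthesis, and no gene of control, uptake or export was among them. Without the 4 vehicle animals that stood apart, 12 genes were called in WT mice and limma called 0 in PXR-KO mice (11 at an unadjusted p under 0.05). SAM, a permutation method, run on all animals called 11 genes in WT mice, 9 higher and 2 lower, without Idi1, Fdps, Tm7sf2, Ebp and Scap, and in PXR-KO mice the 4 that limma called. With quantile normalization of the log2 ratios 2 were called in WT mice, Scarb1 and Lcat, and 0 in PXR-KO mice (16 and 10 at an unadjusted p under 0.05), where 3.89% and 1.11% of all probe sets were called.

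**Figure D1:**
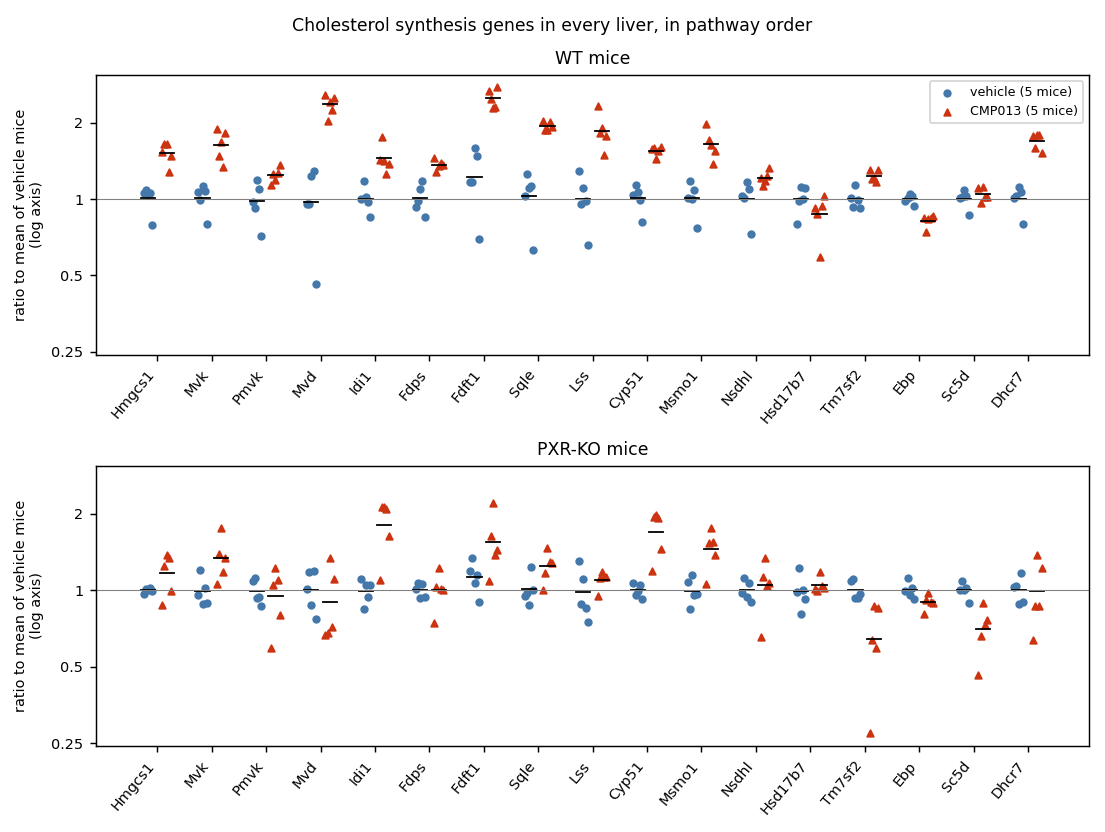
Ratio of each of 17 synthesis genes to the mean of the vehicle mice of the same genotype, on a log axis, in every liver of WT (top) and PXR-KO mice (bottom), in pathway order. Circles are the 5 vehicle and triangles the 5 CMP013 livers, and the short lines are the means of the ratios. In WT mice the CMP013 livers lie above all vehicle livers for 12 genes and below them for Ebp. In PXR-KO mice they lie above for Cyp51 and below for Tm7sf2.

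In WT mice 5 of the 6 measured early genes rose (median log2 fold change 0.56 over the 6). Mvd, the decarboxylase that makes isopentenyl diphosphate, changed most. Its ratios were 0.958, 0.952, 1.23, 1.29 and 0.461 in the vehicle livers and 2.58, 2.04, 2.41, 2.25 and 2.51 in the CMP013 livers. All 5 treated livers lay above the highest vehicle liver, and vehicle replicate 5 was well below the other vehicle livers (log2 fold change 1.35, SE 0.25, adjusted p = 0.00628). Mvk, mevalonate kinase, had vehicle ratios of 1.07, 0.991, 1.13, 1.07 and 0.798 and treated ratios of 1.88, 1.47, 1.67, 1.33 and 1.82, which did not overlap (log2 fold change 0.69, SE 0.13, adjusted p = 0.00698). Hmgcs1, the synthase of HMG-CoA, had vehicle ratios of 1.06, 1.08, 1.05, 1.05 and 0.793 and treated ratios of 1.54, 1.65, 1.65, 1.28 and 1.47 (log2 fold change 0.60, SE 0.12, adjusted p = 0.00792). Here too the groups were apart, and vehicle replicate 5 was again the lowest.

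The isomerase Idi1 and the synthase Fdps, which makes farnesyl diphosphate, rose less in WT mice. Idi1 ran from 0.851 to 1.18 in vehicle and from 1.26 to 1.75 in treated livers (log2 fold change 0.52, adjusted p = 0.0144). Fdps ran from 0.847 to 1.18 and from 1.27 to 1.45 (0.45, adjusted p = 0.0172). Both groups of both genes were apart. The Idi1 call was lost with SAM, with quantile normalization and without the 4 vehicle animals that stood apart (adjusted p up to 0.165), and the Fdps call with SAM, quantile normalization, a replicate block and the mean over its probe sets (up to 0.241). Pmvk, phosphomevalonate kinase, was the early gene that did not pass: its treated ratios of 1.14 to 1.36 overlapped vehicle ratios of 0.712 to 1.19 (log2 fold change 0.36, SE 0.14, adjusted p = 0.109).

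Of the 11 late genes, 7 rose and 1 fell in WT mice (median log2 fold change 0.63). Fdft1, squalene synthase, had the highest treated ratio of the 30 genes. Its vehicle ratios were 1.16, 1.17, 1.58, 1.47 and 0.695 and its treated ratios 2.66, 2.48, 2.29, 2.30 and 2.76 (log2 fold change 1.09, SE 0.20, adjusted p = 0.00618). The vehicle ratios of this gene average 1.22 rather than 1, so its fold change is smaller than its treated ratios. Sqle, squalene epoxidase, had vehicle ratios of 1.03, 1.26, 1.11, 1.13 and 0.628 and treated ratios of 2.03, 1.88, 1.88, 2.02 and 1.92, a narrow band well above the vehicle livers (log2 fold change 0.95, SE 0.17, adjusted p = 0.00512). Lss, which closes the sterol ring, had vehicle ratios of 1.29, 0.952, 1.10, 0.982 and 0.657 and treated ratios of 2.32, 1.81, 1.90, 1.49 and 1.77 (log2 fold change 0.92, SE 0.18, adjusted p = 0.00838). These 3 steps from farnesyl diphosphate to lanosterol thus rose without overlap between the groups in WT mice, and vehicle replicate 5 was the lowest liver in each.

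Dhcr7, which reduces 7-dehydrocholesterol to cholesterol in the last step of its branch, had the smallest adjusted p of the synthesis genes in WT mice. Its ratios were 1.01, 1.03, 1.11, 1.07 and 0.795 in vehicle and 1.78, 1.59, 1.79, 1.78 and 1.51 in CMP013 livers (log2 fold change 0.76, SE 0.11, adjusted p = 0.00163). Msmo1, the sterol C4-methyl oxidase, ran from 0.772 to 1.18 and from 1.37 to 1.97 (0.71, adjusted p = 0.00707). Cyp51, the lanosterol demethylase, ran from 0.811 to 1.14 and from 1.44 to 1.61 (0.63, adjusted p = 0.00299). Tm7sf2, a sterol C14-reductase, rose by the least of those called, from 0.925 to 1.13 in vehicle to 1.17 to 1.30 in treated livers (0.31, SE 0.09, adjusted p = 0.0371). In all 4 genes the groups were apart.

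The other 4 late genes did not rise in WT mice by the probe set used. Ebp, the sterol isomerase, fell: its treated ratios of 0.843, 0.740, 0.835, 0.838 and 0.853 lay below vehicle ratios of 0.981, 1.01, 1.05, 1.03 and 0.939 (log2 fold change -0.28, SE 0.08, adjusted p = 0.0353). Nsdhl, which removes a C4 methyl group, had a log2 fold change of 0.29 (adjusted p = 0.173), and its treated ratios of 1.13 to 1.32 overlapped vehicle ratios of 0.726 to 1.17. Sc5d, the sterol desaturase, stood at 0.06 (adjusted p = 0.718) and Hsd17b7, a sterol ketoreductase, at -0.21 (adjusted p = 0.442). The calls of Tm7sf2 and Ebp were near the threshold: each animal left out in turn, Tm7sf2 was called in 1 of 10 fits and Ebp in 2 of 10 (adjusted p up to 0.0856 and 0.0855). SAM called neither, and neither was called without the 4 vehicle animals that stood apart.

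By size, 11 of the 17 synthesis genes were at least 25% above the vehicle mean in all 5 treated WT livers, and in PXR-KO mice 0 of 17 were. The share of all genes that did so in all 5 livers was not counted. Past this size in either direction were 45.7% to 57.9% of all probe sets on single treated WT arrays. On single treated PXR-KO arrays it was 35.1% to 43.4%. Among the 17 genes the WT groups did not overlap in 13 (12 higher, 1 lower), where treated and vehicle livers did not overlap in 19.3% of all genes (10.2% higher and 9.01% lower). In PXR-KO mice they did not overlap in 2 (Cyp51 higher, Tm7sf2 lower), where 9.89% of all genes did not overlap (4.79% higher and 5.11% lower).

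In PXR-KO mice the same pathway gave 2 calls among 17 genes, both higher (median log2 fold change 0.09, beside -0.02 over all genes). Idi1 had ratios of 1.11, 0.842, 1.05, 0.942 and 1.05 in vehicle and 1.09, 2.13, 2.13, 2.09 and 1.64 in CMP013 livers. Treated replicate 1 lay within the vehicle range while the other treated livers were above it (log2 fold change 0.83, SE 0.19, adjusted p = 0.0418). Cyp51 had vehicle ratios of 1.07, 0.961, 0.997, 1.05 and 0.923 and treated ratios of 1.19, 1.94, 1.99, 1.93 and 1.45, with no overlap and with replicate 1 again the lowest (log2 fold change 0.74, SE 0.15, adjusted p = 0.0287). Without treated replicate 1, Msmo1 was called as well (0.65, adjusted p = 0.0319, beside 0.54 and 0.0722 with it). The Idi1 call held in 1 of 10 fits that left out an animal (adjusted p 0.00921 to 0.109) and the Cyp51 call in 4 of 10 (0.0115 to 0.0805).

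The rest of the pathway in PXR-KO mice lay on either side of the vehicle level. By the probe sets used, Fdft1 (log2 fold change 0.43, adjusted p = 0.225), Mvk (0.43, adjusted p = 0.143) and Sqle (0.30, adjusted p = 0.225) lay above it without passing. Mvd had treated ratios of 0.664, 0.678, 1.34, 0.720 and 1.11 beside vehicle ratios of 1.01, 1.18, 0.876, 1.19 and 0.772, fully overlapping (-0.20, SE 0.22, adjusted p = 0.662). Tm7sf2 had treated ratios of 0.273, 0.639, 0.865, 0.590 and 0.849, all below vehicle ratios of 0.929 to 1.11, but widely spread (-0.75, SE 0.28, adjusted p = 0.173). Sc5d had treated ratios of 0.462, 0.660, 0.892, 0.732 and 0.767, of which 1 reached the vehicle range of 0.890 to 1.09 (-0.54, SE 0.16, adjusted p = 0.0979).

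In PXR-KO CMP013 livers the same animals were at the ends from gene to gene. Replicate 1 was the lowest of the 5 in 16 of the 17 synthesis genes and replicate 3 the highest in all 17. In the 13 genes of control, uptake and export, the same replicates were lowest in 4 and highest in 3. Replicate 3 also had the smallest spread of log2 ratios over all probe sets among treated arrays (SD 0.467, against up to 0.704), and the scores of its first principal component lay nearest to those of the vehicle livers (-28.6, against -49.5 to -66.3 in the other PXR-KO CMP013 livers). In WT vehicle livers, replicate 5 was the lowest in 16 of 17 synthesis genes and in 4 of the 13 others. Without WT vehicle replicate 5, 11 of the 12 synthesis genes stayed called (Tm7sf2 was lost, adjusted p = 0.0856), and the log2 fold change of Mvd was 1.10. What sets these animals apart was not tested.

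The difference of the responses, WT minus PXR-KO, was tested on all 20 arrays. Of the 30 genes, 8 differed, 6 with the higher response in WT mice and 2 with the lower, where 13.6% of all genes differed (7.39% higher and 6.22% lower in WT). Among the synthesis genes, Mvd differed most (1.55, SE 0.35, adjusted p = 0.00723), followed by Tm7sf2 (1.06, SE 0.30, adjusted p = 0.0307), Dhcr7 (0.82, SE 0.23, adjusted p = 0.0271) and Sc5d (0.60, SE 0.18, adjusted p = 0.0410). Mvd and Dhcr7 rose in WT mice and were not called in PXR-KO mice (-0.20 and -0.06), while the differences of Tm7sf2 and Sc5d came in larger part from ratios below 1 in PXR-KO livers. Without WT vehicle replicate 5, Tm7sf2 (adjusted p = 0.0533), Dhcr7 (0.0534) and Sc5d (0.0771) were no longer called, and without PXR-KO CMP013 replicate 4 the count of differences likewise fell to 5. Mvd differed in all 20 fits that left out an animal.

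For most enzymes a difference between the genotypes was not shown, and for some the estimates were close. The responses of Cyp51 differed by -0.11 (SE 0.18, adjusted p = 0.756), those of Idi1 by -0.30 (SE 0.22, adjusted p = 0.428) and those of Msmo1 by 0.17 (SE 0.20, adjusted p = 0.632). Larger estimates that missed the threshold, by the probe sets used, were those of Sqle (0.66, SE 0.21, adjusted p = 0.0573), Lss (0.73, SE 0.24, adjusted p = 0.0599), Fdps (0.46, SE 0.16, adjusted p = 0.0722) and Fdft1 (0.66, SE 0.28, adjusted p = 0.146). Another Lss probe set, 1420013_s_at, did differ (0.93, adjusted p = 0.0270), and a further one, 1420014_at, did not (0.82, adjusted p = 0.619). By step, 1 of 6 early and 3 of 11 late genes differed, with medians of 0.43 and 0.60 beside 0.02 over all genes.

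**Figure D2:**
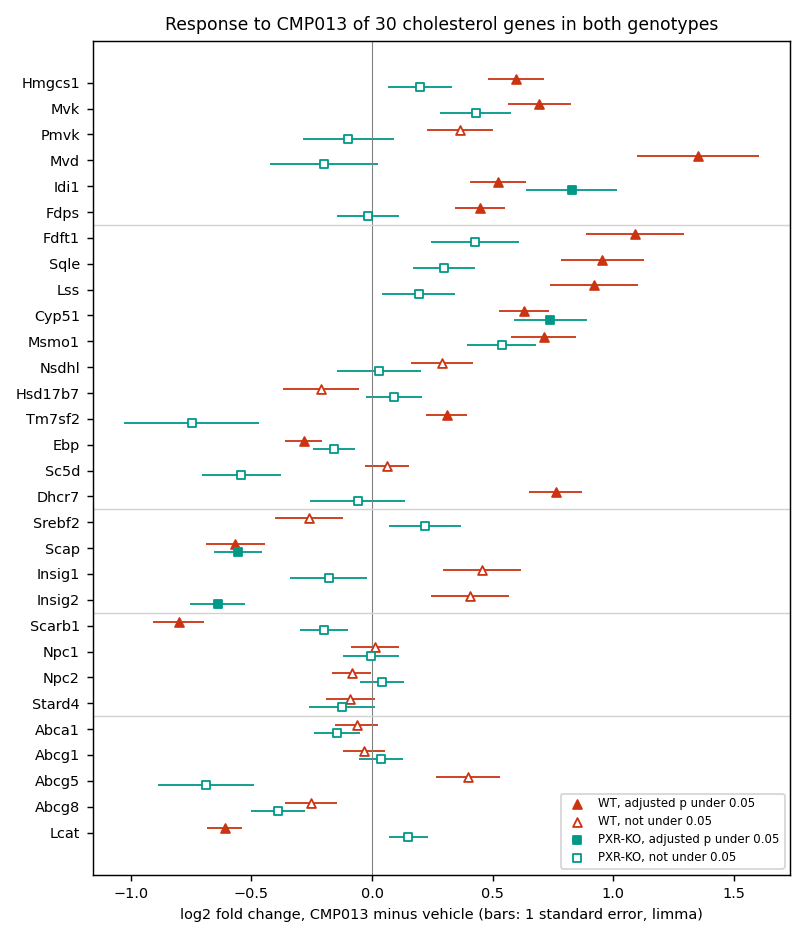
Log2 fold change of 30 genes, CMP013 minus vehicle, in WT (triangles) and PXR-KO mice (squares), with bars of 1 standard error from limma. Filled symbols have an adjusted p under 0.05, and grey lines part the early steps, late steps, SREBP2 control, uptake and transport, and export and esterification. The WT estimates of the synthesis genes run from -0.28 (Ebp) to 1.35 (Mvd), and the PXR-KO estimates from -0.75 (Tm7sf2) to 0.83 (Idi1).

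Of the 4 control genes, Scap was called lower in both genotypes, though not in every setting. Its WT ratios were 1.08, 1.08, 1.05, 0.938 and 0.866 in vehicle and 0.756, 0.571, 0.753, 0.746 and 0.573 in CMP013 livers (log2 fold change -0.57, SE 0.12, adjusted p = 0.0125). In PXR-KO mice they were 0.985, 1.12, 1.03, 0.986 and 0.889 in vehicle and 0.678, 0.761, 0.660, 0.587 and 0.730 in CMP013 livers (-0.55, SE 0.10, adjusted p = 0.0181). Treated and vehicle livers were apart in both, and the responses differed by -0.01 (SE 0.15, adjusted p = 0.973). Scap is the escort of the SREBP precursors, so its transcript went down in WT livers while those of 12 enzymes went up. Both calls held in 10 of 10 fits that left out an animal. The WT call was lost with SAM, with quantile normalization, with the mean over both probe sets and without the 4 vehicle animals that stood apart (adjusted p up to 0.110). The PXR-KO call was lost with quantile normalization, a replicate block, trend and robust variances, the mean over both probe sets and without those animals (up to 0.114).

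Insig2, an anchor that holds Scap in the endoplasmic reticulum, had responses that differed between the genotypes. In PXR-KO mice it fell, from vehicle ratios of 0.868, 1.05, 0.916, 1.05 and 1.17 to 0.773, 0.626, 0.601, 0.638 and 0.601, with no overlap (log2 fold change -0.64, SE 0.11, adjusted p = 0.0165). In WT mice the treated ratios were 1.04, 1.51, 1.06, 1.88 and 1.30 against vehicle ratios of 0.928 to 1.07, which overlapped and did not pass (0.41, SE 0.16, adjusted p = 0.129). The responses differed by 1.05 (SE 0.20, adjusted p = 0.00189), in all 20 fits that left out an animal. Another Insig2 probe set, 1417981_at, was called lower in PXR-KO mice (-0.65, adjusted p = 0.0341) and for the difference (0.88, adjusted p = 0.0383). A further one, 1417980_a_at, was called for neither (-0.50, adjusted p = 0.123, and 0.65, adjusted p = 0.176). Insig1, the anchor that is itself a target of SREBP2, had the same signs without a call: 0.46 in WT (SE 0.16, adjusted p = 0.0947), -0.18 in PXR-KO (adjusted p = 0.573), and a difference of 0.63 (SE 0.23, adjusted p = 0.0878). Srebf2 itself passed neither in WT (-0.26, adjusted p = 0.271) nor in PXR-KO livers (0.22, adjusted p = 0.442) nor for the difference (-0.48, adjusted p = 0.151).

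Among the genes of uptake and intracellular transport, Scarb1, the hepatic receptor for HDL, fell in WT mice. Its ratios were 1.09, 1.01, 0.981, 0.974 and 0.950 in vehicle and 0.657, 0.471, 0.628, 0.590 and 0.541 in CMP013 livers, without overlap (log2 fold change -0.80, SE 0.10, adjusted p = 0.000971). In PXR-KO mice the treated ratios of 0.875, 0.916, 0.810, 0.775 and 1.01 overlapped the vehicle range of 0.907 to 1.11 (-0.20, SE 0.10, adjusted p = 0.299). The responses differed by -0.60 (SE 0.14, adjusted p = 0.00739). By the probe sets used, the lysosomal exporters Npc1 and Npc2 and the sterol carrier Stard4, the latter a target of SREBP2, stood within -0.09 to 0.01 in WT and -0.12 to 0.04 in PXR-KO mice. Another Npc2 probe set, 1455768_at, stood at -0.47 in WT mice (adjusted p = 0.0535), with a difference of -0.60 (adjusted p = 0.0584), neither called. The remaining Npc2 probe sets stood at -0.09 and 0.27 in WT mice. In PXR-KO mice limma called 0 of the 4 genes (0 at an unadjusted p under 0.05, and 0 by SAM).

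Among the genes of export and esterification, Lcat, the plasma enzyme that esterifies cholesterol on HDL, fell in WT mice. Its ratios were 1.04, 0.960, 1.00, 0.980 and 1.02 in vehicle and 0.683, 0.646, 0.661, 0.685 and 0.605 in CMP013 livers without overlap (log2 fold change -0.61, SE 0.07, adjusted p = 0.000645). In PXR-KO mice its treated ratios of 1.24, 1.13, 1.06, 1.06 and 1.07 lay above vehicle ratios of 0.932 to 1.04 but did not pass (0.15, SE 0.08, adjusted p = 0.334). Its SE was the smallest of the 16 genes called in WT mice. The responses differed by -0.76 (SE 0.09, adjusted p = 4.04e-05), the smallest adjusted p of the 30 genes.

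Abcg5 and Abcg8 form 1 transporter that moves sterols into bile, and their genes lie head to head on chromosome 17. Abcg5 had a treated ratio of 0.991 in WT replicate 1 and of 1.17 to 1.35 in the other treated WT livers, against vehicle ratios of 1.07, 0.756, 1.03, 0.988 and 0.802 (log2 fold change 0.40, SE 0.13, adjusted p = 0.0757). In PXR-KO mice its treated ratios were 0.531, 0.516, 0.616, 0.497 and 0.668 against 1.23, 1.04, 1.10, 0.675 and 0.638 (-0.69, SE 0.20, adjusted p = 0.0877). In WT mice 1 treated liver lay within the vehicle range, and in PXR-KO mice vehicle replicate 5 lay within the treated range. Neither passed alone, but the responses differed by 1.08 (SE 0.24, adjusted p = 0.00702). Abcg8 stood at -0.25 in WT livers (adjusted p = 0.162) and at -0.39 in PXR-KO livers (adjusted p = 0.0857), and its responses differed by 0.14 (SE 0.15, adjusted p = 0.614), so the partner genes had estimates of opposite sign in WT livers. The exporters Abca1 and Abcg1, which load cholesterol onto HDL and are targets of the oxysterol receptor LXR, stood between -0.15 and 0.04 in both genotypes. In PXR-KO mice limma called 0 of the 5 genes (2, Abcg5 and Abcg8, at an unadjusted p under 0.05, and 0 by SAM).

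**Figure D3:**
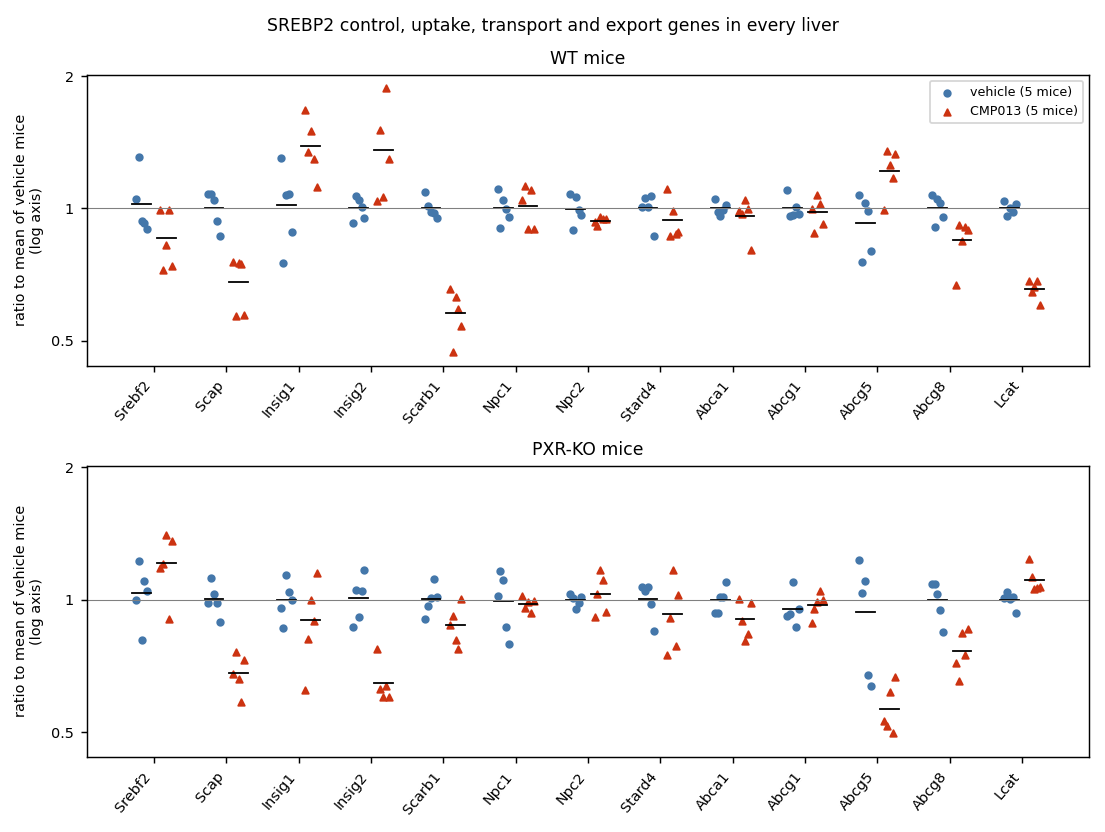
Ratio of the 13 genes of SREBP2 control, uptake and intracellular transport, and export and esterification to the mean of the vehicle mice of the same genotype, on a log axis, in every WT (top) and PXR-KO liver (bottom). Circles are the 5 vehicle and triangles the 5 CMP013 livers, and the short lines are the means of the ratios. Scap lies below its vehicle livers in both genotypes, Scarb1 and Lcat in WT mice, and Insig2 in PXR-KO mice.

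Set side by side per liver, the medians of the gene groups ran as follows. Early genes had medians of 0.39 to 0.64 (log2) in WT CMP013 livers and of -0.33 to 0.15 in WT vehicle livers, and late genes 0.45 to 0.67 and -0.33 to 0.15. In PXR-KO CMP013 livers the early medians ran from -0.31 to 0.44 and the late from -0.07 to 0.42, which overlapped their vehicle livers (-0.13 to 0.13 and -0.12 to 0.13). The control genes had medians of -0.47 to -0.12 in PXR-KO CMP013 livers, below all PXR-KO vehicle livers (-0.04 to 0.12).

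**Figure D4:**
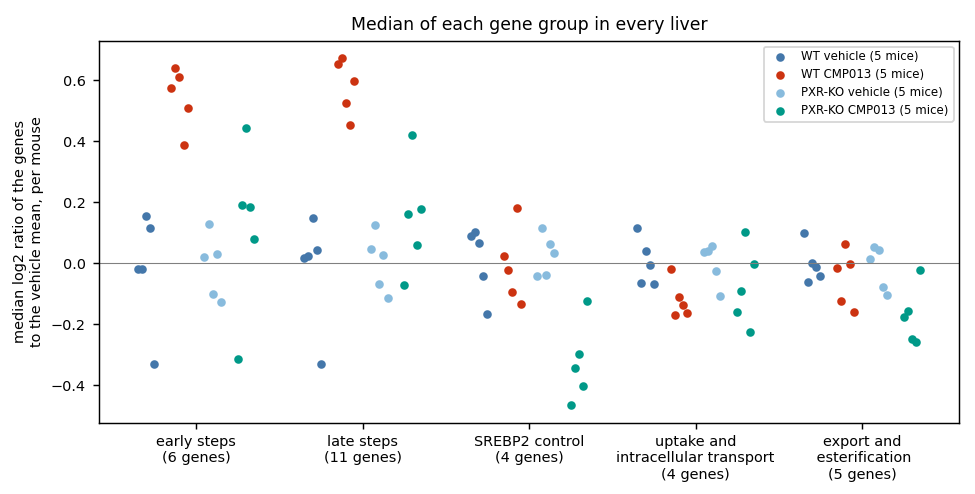
Median log2 ratio over the genes of each of 5 groups, 1 point per liver, by study group of 5 mice. The WT CMP013 livers lie above all WT vehicle livers for early and late steps, and the PXR-KO CMP013 livers lie below all PXR-KO vehicle livers for SREBP2 control.

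For 19 genes more than 1 probe set was available, and for Hsd17b7 the direction in WT mice depended on which was used. Of all 65 probe sets, 27 were called higher and 6 lower in WT mice, where 14.4% of all probe sets were called (7.67% higher and 6.72% lower). In PXR-KO mice 4 were called higher and 4 lower, beside 3.65% (2.12% higher and 1.54% lower), and for the difference 13 and 4, beside 11% (5.47% higher and 5.49% lower). Hsd17b7 stood at -0.21 in WT mice by the probe set used, while its other 3 probe sets rose by log2 fold changes of 0.55, 0.62 and 0.69 (adjusted p = 0.0367, 0.0138 and 0.0460). Hmgcs1 rose at all 5 of its probe sets in WT mice, by 0.60 to 3.40, and at the last of these, 1441536_at, also in PXR-KO mice (1.45, adjusted p = 0.0417) and with a difference of 1.94 (adjusted p = 0.0285). Its probe set 1433446_at differed between the genotypes too (1.13, adjusted p = 0.0260), and its remaining ones did not. The second probe set of Mvk, 1430619_a_at, rose in both genotypes (1.21, adjusted p = 0.00968, and 1.43, adjusted p = 0.0165), and that of Mvd, 1448663_s_at, rose by 2.01 in WT mice and stood at -0.19 in PXR-KO mice (difference 2.20, adjusted p = 0.00382).

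All 3 probe sets of Scarb1 fell in WT mice, by -0.80 to -1.02 on the log2 scale, and all 3 differed between the genotypes. All 3 of Sc5d differed too, with 1 of them called lower in PXR-KO mice (1434520_at, -0.98, adjusted p = 0.0388). All 3 of Cyp51 rose in WT mice, and 1 of the 3 in PXR-KO mice. For Scap the other probe set was not called in either genotype (-0.10 and -0.18), and for Srebf2 the probe sets had opposite signs in WT mice (-0.26 and 0.41, neither called). Of the 4 Fdft1 probe sets, 2 were called in WT mice, both higher. The other Idi1 probe set, 1451122_at, rose in WT mice (0.63, adjusted p = 0.00638). In PXR-KO mice it was not called (0.60, adjusted p = 0.0511). The other Fdps probe set, 1438150_at, was called in neither genotype (0.21, adjusted p = 0.657, and -0.56, adjusted p = 0.334). The Lss probe set 1420014_at was not called in WT mice (0.81, adjusted p = 0.537).

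**Figure D5:**
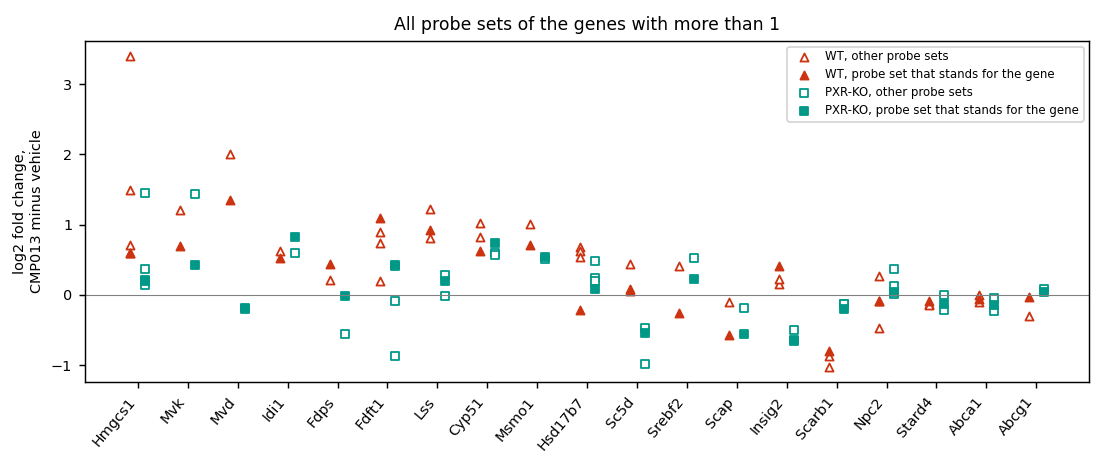
Log2 fold change, CMP013 minus vehicle, at every probe set of the 19 genes with more than 1, in WT (triangles) and PXR-KO mice (squares). Filled symbols are the probe sets that stand for the gene elsewhere. WT values run up to 3.40 (Hmgcs1), and for Hsd17b7 the filled WT symbol at -0.21 lies below the other 3 at 0.55 to 0.69.

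Other genes of the pathway were taken from a list of 42, of which 37 were measured. In WT mice 8 were called, 5 higher and 3 lower, in PXR-KO mice 4, 1 higher and 3 lower, and 9 differed between the responses, 5 higher and 4 lower in WT, where 17.7%, 4.64% and 13.6% of all genes were called. In the list of sterol sensing and degradation, 3 of 8 rose in WT mice: Tmem97, which binds Npc1 (0.96, adjusted p = 0.000293), Erlin1, a scaffold of sterol-driven degradation (0.51, adjusted p = 0.00237), and Mbtps2, a protease that frees SREBP2 (0.46, adjusted p = 0.00783). Tmem97 and Mbtps2 also differed between the genotypes by the probe sets used (0.68 and 0.42, adjusted p = 0.00788 and 0.0253). By its probe set Mbtps2 stood at 0.04 in PXR-KO mice (adjusted p = 0.839). The paper instead lists Mbtps2 as raised in both genotypes. It took the sequence with the largest fold change for each gene, and other probe sets of Mbtps2 were not examined here. In PXR-KO mice 0 of the 8 were called by limma (3 at an unadjusted p under 0.05, and 0 by SAM).

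Both measured genes of endocytic uptake fell in WT mice, Lrp1 (-0.84, adjusted p = 0.000246) and Sort1 (-0.64, adjusted p = 0.0456), and Lrp1 differed between the genotypes (-0.56, adjusted p = 0.0301). Mylip, the LXR target that marks lipoprotein receptors for degradation, fell in WT mice (-1.20, adjusted p = 0.000495) and stood at -0.08 in PXR-KO mice, a difference of -1.12 (adjusted p = 0.000209). Pltp, which transfers phospholipid between lipoproteins, fell in PXR-KO mice (-1.83, adjusted p = 0.0333). It stood at -0.70 in WT mice (adjusted p = 0.110), and the difference of 1.13 was not called (adjusted p = 0.157). Of the 5 LXR genes, 1 was called in each genotype.

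Acss2, which makes acetyl-CoA from acetate and is an SREBP target, fell in PXR-KO mice (-1.37, adjusted p = 0.0197) and differed by 1.65 (adjusted p = 0.000982). It was the only called gene of the 4 of acetyl-CoA supply in either genotype. Among 7 genes of isoprenoid side branches, Nus1 rose in WT mice (0.26, adjusted p = 0.0475) and Pdss2 fell in PXR-KO mice (-0.53, adjusted p = 0.0246). Nus1 stood at 0.36 in PXR-KO mice without a call (adjusted p = 0.0589), with a difference of -0.10 (adjusted p = 0.614). Pdss2 stood at 0.07 in WT mice, with a difference of 0.59 (adjusted p = 0.00594). Of 8 genes of lysosomal and membrane sterol handling, Osbp, an oxysterol-binding carrier, rose in WT mice (0.46, adjusted p = 0.0216). Of 3 genes of bile acid conversion, Cyp39a1, an oxysterol hydroxylase, rose in PXR-KO mice (1.64, adjusted p = 0.00392) and stood at -0.03 in WT mice (difference -1.66, adjusted p = 0.00805).

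Markers of the cells that a liver piece can hold moved with the treatment as well. In WT mice, 1 of 5 hepatocyte markers fell (Ass1, -1.08), 2 of 4 endothelial markers fell (Stab2 -0.63, Clec4g -0.61), 1 of 5 stellate markers fell (Lrat, -0.71), 2 of 3 neutrophil markers rose (S100a8 and S100a9, 1.12 each), and 2 of 3 cycling markers rose (Mki67 1.85 and Cdk1 1.67). Of 8 macrophage markers, 1 rose (Mmp12, 1.72) and 2 fell (Clec4f -0.39, Vsig4 -0.46). In PXR-KO mice, 3 of 8 macrophage markers rose (Mmp12 4.75, Marco 4.22, Cd68 1.11). The other 5 were not called there, at 0.37 for Cd5l, 0.34 for Lyz2, 0.23 for Vsig4, -0.14 for Adgre1 and -0.28 for Clec4f. In those mice 1 of 3 neutrophil markers rose (S100a8, 2.08), while S100a9 (2.05) and Elane (0.39) were not called by limma. SAM called 2 of these 3. Of 4 endothelial markers 1 rose (Lyve1, 1.12), while Stab2 (-0.26), Clec4g (-0.04) and Pecam1 (-0.02) were not called. There 0 of 5 hepatocyte markers were called by limma (1 at an unadjusted p under 0.05, and 0 by SAM). Of 3 cycling markers limma called 0 in PXR-KO mice (1 at an unadjusted p under 0.05, and 1 by SAM). Mki67 stood at -1.72 (adjusted p = 0.0567), Cdk1 at -0.36 and Top2a at 0.09. The responses of Mki67 and Cdk1 differed between the genotypes by 3.57 and 2.03 (adjusted p = 0.00202 and 0.0131), and that of Top2a did not (-0.13). Over the 8 macrophage markers the median log2 ratio of a liver ran from 0.20 to 0.51 in PXR-KO CMP013 and from -0.32 to 0.47 in PXR-KO vehicle livers, which overlapped. Their mean ratio, carried by Mmp12 (11.0 to 68.6 in treated livers) and Marco (5.68 to 13.2), ran from 3.47 to 11.1 and from 0.791 to 1.55. The median over the hepatocyte markers ran from -0.28 to -0.14 and from -0.19 to 0.21, which overlapped as well. Of the 2 red cell markers, Alas2 fell in both genotypes (-1.07 and -1.71) and Hba-a1 rose in WT mice (0.56). The part of these cells in the results for the cholesterol genes was not tested, and because the values are ratios they hold no level at which a marker is absent. Of the 4 T cell, 2 B cell and 4 cholangiocyte markers limma called none in either genotype, while in each genotype 2, 1 and 0 had an unadjusted p under 0.05, and SAM called 1 T cell marker in PXR-KO mice.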

How the data were processed

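Liver RNA of 20 male mice, in 4 groups of 5 named by the labels, was hybridized to Affymetrix mouse genome arrays, 1 for each animal. The authors deposited log10 ratios from Rosetta Resolver 7.2, the intensity of each animal over the mean of the 5 vehicle animals of its genotype, limited to log10 values of 2 in size. No member value lay at this limit. Because ratios were taken within a genotype, gene levels and the effect of the knockout were not analysed here. No intensity or detection call was used, so precision rests on the number of arrays.

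Ratios were put on the log2 scale and tested in R 4.3.3 with limma 3.58.1 (lmFit and eBayes) and data.table (version 1.17.8), with Benjamini-Hochberg adjustment over 45037 probe sets. CMP013 was set against vehicle on the 10 arrays of a genotype, and all 20 arrays gave the test of unequal responses. Probe sets naming the gene alone stood for it, those without the _s_ or _x_ mark first, then the one with the smallest pooled standard deviation among vehicle animals. Of the probe sets, 34945 name 1 gene, 932 several and 9160 none. Columns of other samples numbered 0. Named genes are all measured members, Nr1i2, and up to 4 genes per list by smallest adjusted p over the 3 comparisons. All 8 macrophage markers are named beyond this rule, after their values were seen. The members and lists were chosen with earlier results of these data known. SAM, which the study compared with an algorithm of its own, was written out (100 permutations, false discovery rate 0.05). On simulated data with 100 probe sets changed at each size among 45037, limma found 47% of log2 changes of 1 and 88% of changes of 2 in the WT design (7 false calls). The PXR-KO design gave 54% and 92% (6 false calls), and unequal responses gave 46% and 90% (11 false calls). The noise was normal, with 1 standard deviation per probe set pooled over all 4 groups. These shares therefore cannot show whether power differed between the genotypes. In the real WT data 6480 probe sets were called, far more than were changed in the simulation, so the shares need not hold there. Promoters are from RefSeq (GRCm38.p6). Figures and motifs used Python 3.11.15, pandas 2.3.3, numpy 2.4.6 and matplotlib 3.10.9. Alternatives were array weights, a common median, quantile normalization, a replicate block, trend and robust variances, all 4 groups in one fit, a change of at least 25%, SAM, other probe set choices, a filter on variable probe sets, and leaving out animals.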

Additional observations from a re-analysis of the deposited data

Results flagged for a closer look

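Within groups of 5 livers, 9 of 120 groups tested (30 genes in 4 groups) had 1 liver whose gap to its nearest neighbour exceeded 0.71 of the range of the group, Dixon's 95% limit, which chance alone passes in about 1 in 20 groups. Of these 9, 3 are WT vehicle replicate 5, low for Hmgcs1 (ratio 0.793), Dhcr7 (0.795) and Stard4 (0.866). Another 2 are PXR-KO CMP013 replicate 1, low for Lss (0.951) and high for Insig2 (0.773). The others are Hsd17b7 in PXR-KO CMP013 replicate 3 (1.19, high), and, among WT CMP013 livers, Ebp in replicate 2 (0.740, low), Abca1 in replicate 5 (0.806, low) and Abcg8 in replicate 1 (0.669, low).

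The responses to CMP013 of 8 genes differed between the genotypes by the limma test of the difference. Taken as WT minus PXR-KO, the responses differed by 1.55 for Mvd, 1.08 for Abcg5, 1.06 for Tm7sf2, 1.05 for Insig2, 0.82 for Dhcr7 and 0.60 for Sc5d, and by -0.60 for Scarb1 and -0.76 for Lcat, all on the log2 scale.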

How the results depend on the processing

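The count of called genes (16 in WT mice, 4 in PXR-KO mice, 8 differences) moved by over 1.5 times in these settings. Quantile normalization, which gives all arrays the same spread, left 2, 0 and 2. A replicate block left 13, 0 and 5 (10 at an unadjusted p under 0.05 in PXR-KO mice). The replicate numbers gave no sign of pairing: deviations of same-numbered animals correlated at -0.24 to 0.07, and no vehicle animal matched its own number best. Whether the numbers carry a shared block cannot be read from these correlations. In PXR-KO mice trend and robust variances called 0 members (11 unadjusted) and 0% of all probe sets, all 4 groups in one fit called 9 and the probe set with the largest change 7. Without the 4 vehicle animals that stood apart, 0 were called in PXR-KO mice and 5 differences were found. Leaving out 1 animal gave 14 to 15 in WT mice, 2 to 5 in PXR-KO mice (2 without vehicle replicate 2, 3, 4 or 5 or CMP013 replicate 2 or 4) and 5 to 10 differences (5 without WT vehicle replicate 5 or PXR-KO CMP013 replicate 4). The cause was not tested. SAM and a fit of all 4 groups were not run for the difference, the second because it already uses them.

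Direction turned in the following values, none of a gene called in that comparison by the probe set used. Of these values, that of WT Hsd17b7 with the probe set of largest change was itself called (0.69, limma adjusted p = 0.0460). With the mean over all probe sets, WT Hsd17b7 was 0.41 and Srebf2 0.074, PXR-KO Fdft1 -0.032, and the differences of Cyp51, Hsd17b7, Scap and Stard4 were 0.19, 0.15, 0.038 and -0.0069. With the probe set of largest change, WT Hsd17b7 was 0.69 and Srebf2 0.41, PXR-KO Fdft1 -0.88, and these differences 0.43, 0.37, 0.088 and -0.13. In PXR-KO mice Fdps and Npc1 were 0.016 and 0.026 with array weights, 0.0046 and 0.00987 with quantile normalization, and 0.042 and 0.018 without the 4 vehicle animals, where Dhcr7 was 0.036 and Abcg1 -0.019. The difference of Scap was 0.0041 with a common median and 0.077 with quantile normalization. Leaving out 1 animal, values crossing 0 ran from -0.027 to 0.055 (Npc1) and -0.066 to 0.0054 (Abcg1) in WT mice. In PXR-KO mice they ran from -0.20 to 0.061 (Pmvk), -0.093 to 0.087 (Fdps), -0.069 to 0.19 (Nsdhl), -0.19 to 0.087 (Dhcr7), -0.080 to 0.057 (Npc1) and -0.0055 to 0.082 (Npc2). For the difference they ran from -0.045 to 0.093 (Npc1), -0.066 to 0.047 (Scap) and -0.038 to 0.12 (Stard4).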
